A study of Mus musculus with 19 samples.

Results

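The genes described here are the transcriptional coactivators YAP and TAZ and their DNA-binding partners of the TEAD family. With them are genes whose transcripts are widely used to read that pathway and the mechanical load on cells, and the scaffold gene Ajuba. They were chosen by symbol, 10 of the 55536 genes counted: Yap1, Wwtr1 (which encodes TAZ), Tead1, Tead2, Tead3, Tead4, Ccn1, Ccn2, Ankrd1 and Ajuba. Their levels were measured by RNA sequencing of total RNA from whole mouse kidney. There were 8 libraries from the UUO group given zalfermin, described in the study title as a long-acting analogue of the hormone FGF21, 7 libraries from the UUO group given vehicle, and 4 libraries from healthy kidneys. UUO usually denotes unilateral ureteral obstruction, in which a tied ureter distends and scars the kidney. The sample labels name the condition of both obstructed groups MASH, a term for a liver disease, and call the healthy kidneys untreated where the design text calls them vehicle. The drug appears in the labels only as a treatment code, which was taken to be zalfermin. The sources used here do not give strain, age, sex, dose or the time after surgery. The labels do not say that each library came from its own animal. The p-values therefore weigh group differences against the spread between libraries, which may not be that between animals.

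YAP and TAZ do not bind DNA themselves. They are held in the cytoplasm and degraded when the LATS kinases of the Hippo pathway phosphorylate them. When cells spread, are stretched or lie on a stiff matrix, they enter the nucleus and join TEAD factors on DNA. In the injured kidney the pathway has been studied in tubule cells under stretch and in the fibroblasts that lay down scar. Transcript levels of Yap1 and Wwtr1 do not show where their proteins are, so levels of target genes are commonly read beside them.

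Libraries held 12209122 to 14844103 counts, and all 10 genes were among the 16026 tested. Levels are given as CPM, counts scaled to each library's TMM-adjusted total, and a gene is said to have risen or fallen where edgeR's quasi-likelihood test gave a Benjamini-Hochberg adjusted p under 0.05 over all tested genes. Vehicle library 6 stood apart: 19788 genes had a count in it, where the other 6 of its group had 21374 to 22216, and mitochondrial genes took 1.10% of its counts, where they took 3.09% to 4.21% in those 6. Mitochondrial genes took 2.95% to 4.25% of the counts of zalfermin libraries and 8.77% to 10.2% of those of healthy libraries. In whole kidney, a change in the number of cells of a type and a change in the RNA per cell cannot be told apart. Summed levels of 7 fibroblast markers were 1582 to 2504 CPM in zalfermin, 2664 to 4799 CPM in vehicle and 176 to 283 CPM in healthy libraries. Collagen genes dominate this sum: Col1a1, Col1a2 and Col3a1 averaged 745, 943 and 1176 CPM in vehicle libraries. Pdgfra, Pdgfrb, Dcn and Lum averaged 144, 206, 117 and 13.5 CPM there. Summed levels of 5 injured-tubule markers were 2180 to 3219, 1639 to 2660 and 19.2 to 35.3 CPM in zalfermin, vehicle and healthy libraries. Those of 6 proximal tubule markers were 2341 to 4527, 2029 to 4337 and 11078 to 13721 CPM. The part of these shifts in the results below was not tested beyond the values given.

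With obstruction (vehicle against healthy kidneys) 8 of the 10 genes rose and 0 fell (0 also at unadjusted p under 0.05 and by DESeq2 and voom), where 36.2% of all tested genes rose and 28.6% fell. Ankrd1 changed most, 12.2-fold, followed by Tead2 (6.75-fold), Ccn1 (4.46-fold), Ccn2 (3.73-fold) and Ajuba (2.86-fold). Yap1, Wwtr1 and Tead3 rose 1.23-, 1.30- and 1.39-fold, and Tead1 and Tead4 did not pass the test. For 6 of the 10, namely Tead2, Tead3, Ccn1, Ccn2, Ankrd1 and Ajuba, every vehicle library lay above every healthy library, as did 24.7% of all tested genes. Under zalfermin 1 of the 10, Tead2, fell relative to vehicle and 0 rose, where 0.942% of all tested genes fell and 0.867% rose. At unadjusted p under 0.05, edgeR placed 3 lower (Tead2, Ccn1 and Ajuba) and 0 higher, where 7.53% of all tested genes were lower and 7.94% higher. DESeq2 and voom called 2 and 1 of the 10 lower and 0 higher. Of the 16026 tested genes they called 342 and 646 lower and 260 and 502 higher. Without vehicle library 6, 9 of the 10 rose with obstruction (Tead1 was added), and 2 fell under zalfermin (Ajuba was added). The median log2 fold change of the 10 genes was 0.995 for vehicle against healthy and -0.20 for zalfermin against vehicle, beside 0.09 and 0.01 over all tested genes. The comparisons share the vehicle libraries.

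**Figure D1:**
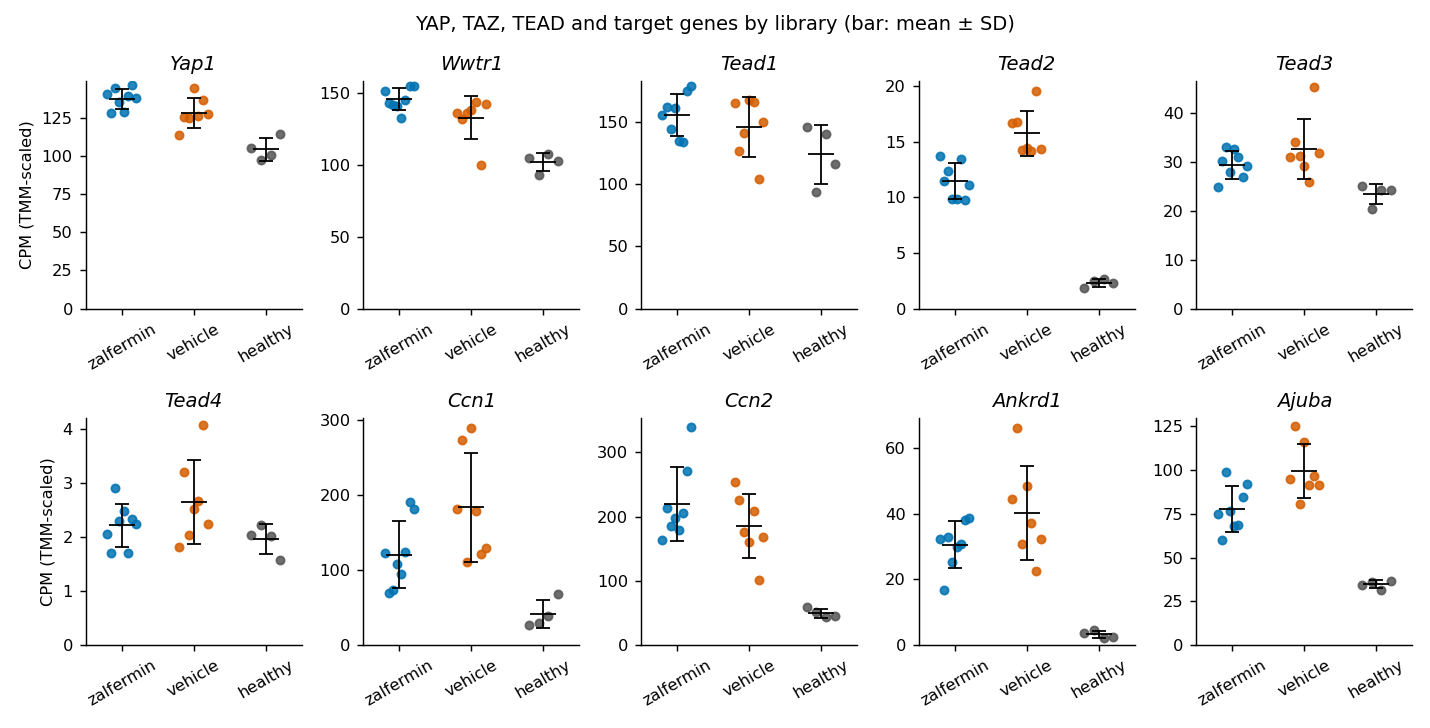
CPM (TMM-scaled) of the 10 genes, 1 panel per gene, with 1 point per library and the mean ± SD of 8 zalfermin, 7 vehicle and 4 healthy libraries as bars. Ankrd1 had means of 30.5, 40.2 and 3.30 CPM in those groups, and Tead2 is the gene whose zalfermin libraries all lie below the vehicle libraries.

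The coactivators rose modestly. Yap1, on chromosome 9 (GRCm38, 7931999 to 8004596, minus strand), had 128, 139 and 147 CPM as its lowest, median and highest zalfermin value and 114, 126 and 145 CPM as those in vehicle libraries, against 105, 97.0, 101 and 115 CPM in the healthy libraries. Of the vehicle libraries 6 lay above the healthy range and 1 within it, while all 8 zalfermin libraries lay above it. The log2 fold change was 0.30 for vehicle against healthy (SE 0.0748, edgeR adjusted p = 0.00140) and 0.40 for zalfermin against healthy (edgeR adjusted p = 5.76e-05). Between zalfermin and vehicle it was 0.10, with a 95% interval of -0.02 to 0.23 and an edgeR adjusted p of 0.443, although 8 of 8 zalfermin libraries lay above the vehicle median.

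Wwtr1, on chromosome 3 (57455649 to 57575910, minus strand), had a lowest, median and highest level of 133, 145 and 156 CPM under zalfermin and of 100.4, 137 and 144 CPM under vehicle, against 105, 93.0, 108 and 103 CPM in healthy libraries. The low vehicle value is that of library 6, and the other 6 vehicle libraries held at least 132.5 CPM, above every healthy library. Its log2 fold change was 0.38 for vehicle against healthy (SE 0.0873, edgeR adjusted p = 0.000592). For zalfermin against vehicle it was 0.13 (interval -0.01 to 0.28, edgeR adjusted p = 0.371), and 0.06 without vehicle library 6.

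Whether obstruction or the drug moved the balance of both coactivators was asked of the log2 ratio of Wwtr1 to Yap1 counts. It averaged 0.09 ± 0.0639 in zalfermin, 0.05 ± 0.239 in vehicle and -0.03 ± 0.107 in healthy libraries (SD, n = 8, 7 and 4). By 2-sided exact permutation tests the differences gave p = 0.588 for vehicle against healthy, 0.761 for zalfermin against vehicle and 0.0525 for zalfermin against healthy (0.761, 0.761 and 0.158 adjusted over the 3 tests). Vehicle library 6 was the lowest, at -0.44, and without it the difference between zalfermin and vehicle changed sign, to -0.044 (exact permutation p = 0.376).

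The TEAD factors, which carry YAP and TAZ to DNA, differed among themselves, and Tead2 stood out. Tead2 lies on chromosome 7 (45215753 to 45233644, plus strand). Its lowest, median and highest levels were 9.79, 11.3 and 13.7 CPM in zalfermin and 14.2, 14.4 and 19.6 CPM in vehicle libraries, against 1.87, 2.48, 2.69 and 2.26 CPM in healthy libraries. The 3 groups did not overlap: all zalfermin libraries lay below all vehicle libraries and above all healthy ones. Of all tested genes, 0.256% had every zalfermin library below every vehicle library.

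For Tead2 the log2 fold change was 2.75 for vehicle against healthy (SE 0.159, edgeR adjusted p = 1.86e-12). It was -0.46 for zalfermin against vehicle (SE 0.104, interval -0.68 to -0.24, edgeR adjusted p = 0.0237). Zalfermin against healthy gave 2.30 (edgeR adjusted p = 2.90e-11). The fall under zalfermin no longer passed without vehicle library 2 (edgeR adjusted p = 0.0521), without zalfermin library 4 (0.0576) or without zalfermin library 5 (0.0586), and passed in the other 20 of 23 alternative settings, with adjusted p from 0.00189 to 0.0586 over the 23. Without vehicle library 6 it was -0.41 (edgeR adjusted p = 0.0250).

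Cd37 and the fibroblast markers are given beside Tead2. Its exons overlap those of Cd37, a leukocyte tetraspanin on the opposite strand, and how strand was handled in counting is not known, which may leave reads of the 2 genes mixed. Cd37 had 1391 counts over all libraries against 3074 for Tead2, and averaged 5.46 ± 0.864, 6.57 ± 1.28 and 1.59 ± 0.147 CPM in zalfermin, vehicle and healthy libraries. Its log2 fold change for zalfermin against vehicle was -0.26 (edgeR adjusted p = 0.347). Among vehicle libraries, library 6 had the highest Tead2 level and the lowest Cd37 level. Vehicle library 7 had the highest Cd37 and Col1a1 levels with 14.3 CPM of Tead2. Among zalfermin libraries, where Tead2 ran from 9.79 to 13.7 CPM, library 6 had the highest fibroblast marker sum (2504 CPM) with 13.5 CPM of Tead2. Zalfermin library 3 had the highest Cd37 level of its group (6.81 CPM) with 12.4 CPM of Tead2. The highest Tead2 level of that group, 13.7 CPM in library 1, stood beside a fibroblast marker sum of 1950 CPM. Library 8 had a sum of 2419 CPM with 11.2 CPM of Tead2. Library 4 had 6.13 CPM of Cd37 with 9.84 CPM of Tead2. The fibroblast marker Col1a1, a gene for fibrillar collagen, averaged 411 ± 62.2, 745 ± 238 and 24.0 ± 2.67 CPM in the same groups and fell under zalfermin by 0.86 on the log2 scale (edgeR adjusted p = 0.00301, lower in 8 of 8 libraries than in every vehicle library). Of the 7 fibroblast markers 3 fell under zalfermin by edgeR, the collagen genes Col1a1, Col1a2 and Col3a1. For each of these, 8 of 8 zalfermin libraries lay below every vehicle library, against 5 for Pdgfrb, 1 for Dcn and 0 for Pdgfra and Lum. The median log2 fold change of the 7 was -0.64. DESeq2 and voom called 4 and 5 of them lower, and 342 and 646 of the 16026 tested genes. The part of fibroblast number or of Cd37 reads in the Tead2 result was not tested.

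**Figure D2:**
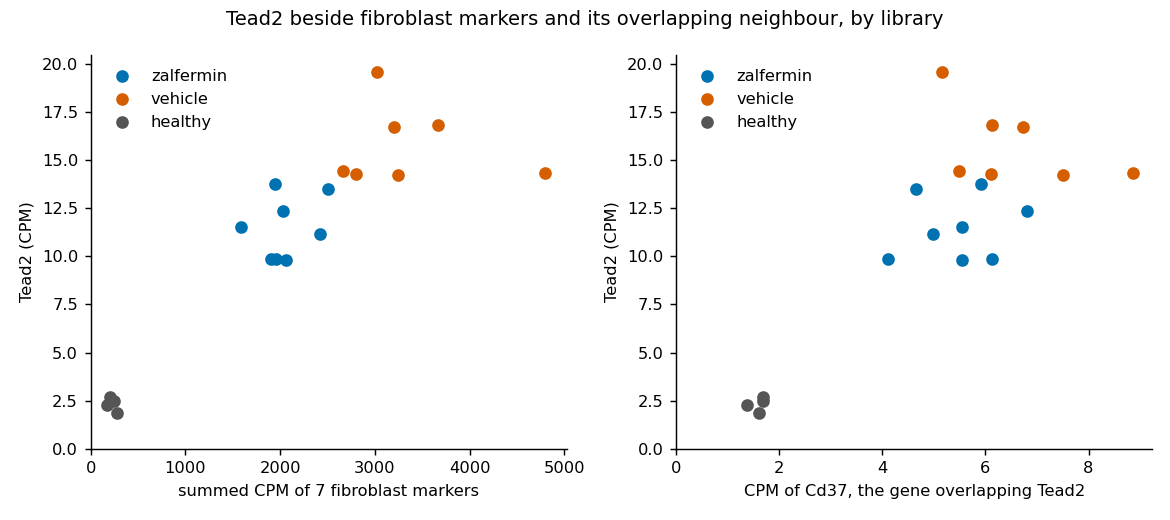
Tead2 level (CPM, vertical) against the summed CPM of 7 fibroblast markers (left) and the CPM of Cd37 (right), with 1 point per library and colours for zalfermin, vehicle and healthy. Zalfermin libraries lie between the other groups on both axes of the left panel, while Cd37 values of zalfermin and vehicle libraries overlap in the right panel.

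Tead3 and Tead1 moved less. Tead3, on chromosome 17 (28331671 to 28350817, minus strand), had 24.8, 29.7 and 33.1 CPM (lowest, median, highest) in zalfermin and 25.9, 31.3 and 45.4 CPM in vehicle libraries, against 25.1, 20.5, 24.3 and 24.3 CPM in healthy libraries. The highest value is again vehicle library 6, and the lowest vehicle library lay just above the highest healthy one. Its log2 fold change was 0.47 for vehicle against healthy (SE 0.122, edgeR adjusted p = 0.00179) and -0.15 for zalfermin against vehicle (edgeR adjusted p = 0.493, and -0.063 without vehicle library 6). For zalfermin against healthy it was 0.33 (edgeR adjusted p = 0.0211), a call that was lost with RLE scaling (0.0820), with DESeq2 (0.0844) and without healthy library 2 (0.0871).

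Tead1, on chromosome 7 (112679318 to 112906807, plus strand), was the most abundant TEAD transcript per kilobase of exons in every group on average. It had 134, 159 and 179 CPM (lowest, median, highest) in zalfermin and 104, 151 and 168 CPM in vehicle libraries, against 147, 93.9, 140 and 116 CPM in healthy libraries, and the groups overlapped. The log2 fold changes were 0.23 for vehicle against healthy (edgeR adjusted p = 0.123), which passed with voom (0.0210) and without vehicle library 6 (0.0469), and 0.09 for zalfermin against vehicle (0.718), or 0.013 without vehicle library 6. For zalfermin against healthy Tead1 rose by 0.33 (edgeR adjusted p = 0.0310), but not with RLE scaling (0.109), with DESeq2 (0.105) or without zalfermin library 7 or 8 (0.0528 and 0.0547) or healthy library 2 or 4 (0.164 and 0.0837).

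Tead4, on chromosome 6 (128224288 to 128300823, minus strand), averaged 2.22 ± 0.398, 2.65 ± 0.773 and 1.96 ± 0.276 CPM in zalfermin, vehicle and healthy libraries, with overlapping ranges. It rests on 621 counts over all libraries and passed the test in none of the 3 comparisons by edgeR (adjusted p of 0.109 for vehicle against healthy, 0.524 for zalfermin against vehicle and 0.518 for zalfermin against healthy). Its log2 fold change for zalfermin against vehicle was -0.26, and -0.13 without vehicle library 6.

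As shares of the 4 TEAD genes' counts per kilobase of exons, Tead2 made up 12.7% ± 2.03 in zalfermin, 16.8% ± 2.23 in vehicle and 3.63% ± 0.882 in healthy libraries (SD, n = 8, 7 and 4). Tead1 made up 60.7% ± 4.03, 54.7% ± 7.94 and 66.5% ± 3.33 in the same groups. Tead3 held 23.3%, 24.8% and 25.8%, and Tead4 3.27%, 3.76% and 4.07%. The Tead2 share of every obstructed library lay above that of every healthy library.

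**Figure D3:**
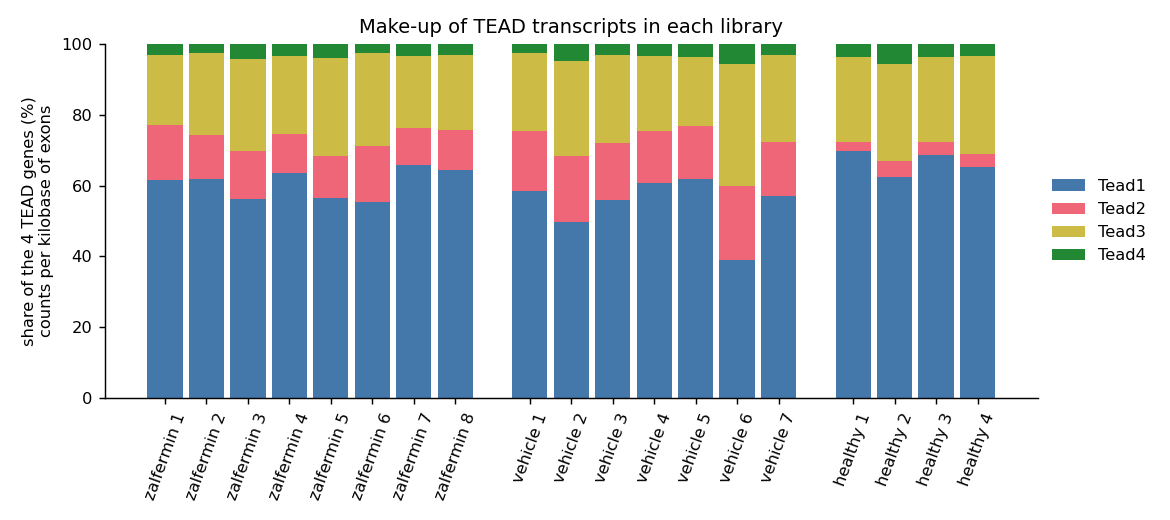
Share of the 4 TEAD genes (counts per kilobase of exons, percent) in each library, as stacked bars grouped as zalfermin, vehicle and healthy. Tead2 takes 10.4% to 15.8% in zalfermin, 14.7% to 20.8% in vehicle and 2.52% to 4.67% in healthy libraries.

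Ccn1, Ccn2, Ankrd1 and Ajuba all rose with obstruction. TEAD factors bind a short element whose core is GGAATG, read as CATTCC on the opposite strand. RefSeq promoter windows of GRCm38.p6, from 250 bases before to 50 after each annotated start, were given for 7 of the 10 genes, and 6 of these hold the core on either strand in at least 1 window: Yap1, Wwtr1, Tead3, Ccn1, Ankrd1 and Ajuba. The window of Tead2 holds none. Of all 32851 windows 14.7% hold it and 1.36% hold at least 2. These shares are per window, while a gene was counted if any of its windows held the core. Wwtr1 had 2 windows and Tead3 had 3, and no share per gene is given here. The CArG box, the site of the serum response factor SRF, matched in 0 of the 7, and in 1.63% of all windows. The 250 bases before the start of Ccn1 (chr3:145649986-145650235), Ankrd1 (chr19:36119845-36120094) and Ajuba (chr14:54577662-54577911), all on the minus strand, are shown 5′ to 3′. Of Ccn1, Ccn2, Ankrd1 and Ajuba, these 3 had a window. Capitals mark the core.
Ccn1: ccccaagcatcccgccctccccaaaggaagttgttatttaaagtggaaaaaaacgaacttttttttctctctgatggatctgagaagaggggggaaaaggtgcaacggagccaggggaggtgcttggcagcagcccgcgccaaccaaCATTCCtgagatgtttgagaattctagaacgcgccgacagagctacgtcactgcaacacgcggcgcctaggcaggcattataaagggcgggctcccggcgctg
Ankrd1: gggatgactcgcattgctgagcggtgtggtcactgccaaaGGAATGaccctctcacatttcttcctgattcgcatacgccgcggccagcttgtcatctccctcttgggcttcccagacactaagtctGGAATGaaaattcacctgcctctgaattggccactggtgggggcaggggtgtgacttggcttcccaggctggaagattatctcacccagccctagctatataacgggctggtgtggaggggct
Ajuba: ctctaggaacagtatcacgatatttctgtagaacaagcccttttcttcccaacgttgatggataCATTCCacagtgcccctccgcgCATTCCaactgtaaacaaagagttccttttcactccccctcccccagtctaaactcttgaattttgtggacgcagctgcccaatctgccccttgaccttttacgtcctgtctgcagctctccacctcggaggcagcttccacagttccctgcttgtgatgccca
The core begins 103 bases before the start in Ccn1, 210 and 123 bases before it in Ankrd1, and 186 and 164 bases before it in Ajuba. A match is a run of letters and not evidence of binding. Windows for Ccn2, Tead1 and Tead4 were not used here.

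Ankrd1 encodes an ankyrin-repeat protein best known from stretched heart muscle, and is a common reporter of YAP activity (chromosome 19, 36111961 to 36120099, minus strand). It had 16.6, 31.5 and 38.6 CPM (lowest, median, highest) in zalfermin and 22.7, 37.0 and 65.9 CPM in vehicle libraries, against 3.82, 4.61, 2.11 and 2.65 CPM in healthy libraries. Every obstructed library lay far above the healthy ones, and the highest vehicle values were those of libraries 2 and 4. The log2 fold change was 3.60 for vehicle against healthy (SE 0.306, edgeR adjusted p = 7.65e-10). It was -0.40 for zalfermin against vehicle (SE 0.191, interval -0.79 to 0.00, edgeR unadjusted p = 0.0502, adjusted p = 0.323), with 6 of 8 zalfermin libraries below the vehicle median. Heart and skeletal muscle markers were at or near 0 beside it, with 6 markers summing to at most 3.92 CPM in any library and Myh4 at 0 in all. Among them only Acta1, which encodes skeletal muscle actin, was tested, and it moved in the same direction as Ankrd1. It had 0.508 ± 0.366 CPM in zalfermin, 0.803 ± 0.297 CPM in vehicle and 0.0854 ± 0.119 CPM in healthy libraries, the last resting on 4 counts. EdgeR's adjusted p was 0.00112 for vehicle against healthy, 0.473 for zalfermin against vehicle and 0.00995 for zalfermin against healthy. The other markers had too few reads for that test. Actc1 was above the healthy median in 7 of 7 vehicle libraries and below the vehicle median in 7 of 8 zalfermin libraries. Myh6 and Tnnt2 were each below the healthy median in 6 of 7 vehicle libraries. These 2 were above the vehicle median in 6 and 5 of 8 zalfermin libraries. Ckm held 0, 4 and 1 counts in zalfermin, vehicle and healthy libraries.

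Ccn1 and Ccn2 encode secreted matricellular proteins, formerly CYR61 and CTGF, and are direct YAP and TEAD targets. Ccn1, on chromosome 3 (145646976 to 145649981, minus strand), had 69.5, 116 and 192 CPM (lowest, median, highest) in zalfermin and 111, 179 and 290.2 CPM in vehicle libraries, against 26.9, 30.3, 39.2 and 68.5 CPM in healthy libraries. The highest healthy library came close to the lowest zalfermin library, and vehicle libraries 4 and 2 were the highest of all. For vehicle against healthy the log2 fold change was 2.16 (SE 0.336, edgeR adjusted p = 6.88e-06). For zalfermin against vehicle it was -0.60 (SE 0.248, interval -1.12 to -0.09, edgeR unadjusted p = 0.0233, adjusted p = 0.241), with 6 of 8 zalfermin libraries below the vehicle median and 4 below every vehicle library.

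Ccn2 lies on chromosome 10 (24595442 to 24598683, plus strand), where exons of Gm15270 overlap it on the opposite strand with 243 counts over all libraries against 46803 for Ccn2. It had 164, 202 and 339 CPM (lowest, median, highest) in zalfermin and 102, 177 and 254 CPM in vehicle libraries, against 59.2, 51.5, 43.3 and 44.7 CPM in healthy libraries. Zalfermin libraries 7 and 8 were the highest and vehicle library 6 the lowest of the obstructed kidneys, which otherwise overlapped. The log2 fold change was 1.90 for vehicle against healthy (SE 0.218, edgeR adjusted p = 8.92e-08) and 0.24 for zalfermin against vehicle (interval -0.10 to 0.58, edgeR adjusted p = 0.500, and 0.12 without vehicle library 6), with 7 of 8 zalfermin libraries above the vehicle median. The Ccn1 and Ccn2 estimates for the drug therefore had opposite signs, and neither passed the test.

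Ajuba encodes a LIM-domain scaffold that binds LATS kinases and sits at junctions under tension (chromosome 14, 54567472 to 54577558, minus strand). It had 59.8, 75.6 and 98.6 CPM (lowest, median, highest) in zalfermin and 80.9, 94.7 and 125 CPM in vehicle libraries, against 34.4, 36.4, 31.7 and 36.5 CPM in healthy libraries. Healthy values were tightly grouped and below every obstructed library, and 5 of 8 zalfermin libraries lay below every vehicle library. The log2 fold change was 1.52 for vehicle against healthy (SE 0.135, edgeR adjusted p = 1.66e-09) and -0.35 for zalfermin against vehicle (SE 0.103, interval -0.57 to -0.14, edgeR adjusted p = 0.0819). This last difference passed with DESeq2 (adjusted p = 0.0287), with upper-quartile scaling (0.0457), without vehicle library 6 (0.0485) and without zalfermin library 3 (0.0406).

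**Figure D4:**
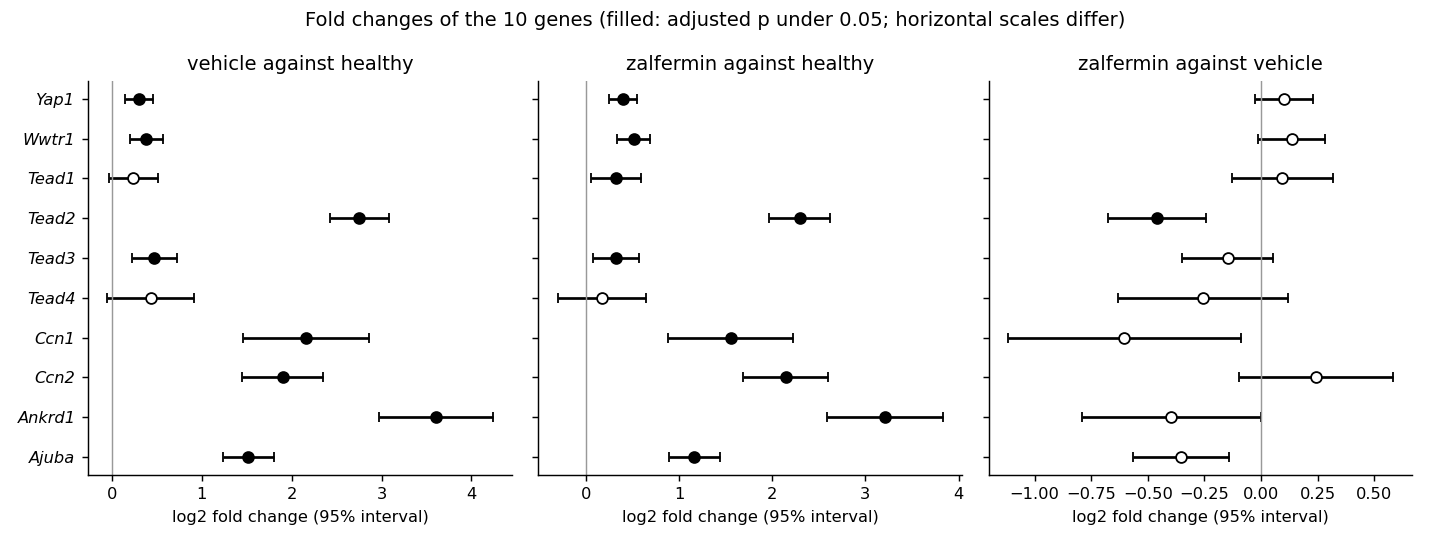
Log2 fold change of each of the 10 genes with its 95% interval, 1 panel per comparison, filled where edgeR's adjusted p was under 0.05. For vehicle against healthy the points run from 0.23 (Tead1) to 3.60 (Ankrd1), and for zalfermin against vehicle from -0.60 (Ccn1) to 0.24 (Ccn2), where Tead2 alone is filled.

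Most of the genes were higher in zalfermin-treated obstructed kidneys than in healthy ones. Of the 10 genes 9 rose and 0 fell relative to healthy kidneys, where 37.3% of all tested genes rose and 27.0% fell. For 7 of them every zalfermin library lay above every healthy library, as did 29.4% of all tested genes. Ankrd1 was 9.24-fold higher, Tead2 4.91-fold, Ccn2 4.42-fold, Ccn1 2.94-fold and Ajuba 2.24-fold. The corresponding folds for vehicle against healthy, which shares the healthy libraries, are those given above.

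Per kilobase of exons, the order of the 10 genes differed between groups. In zalfermin libraries Ccn2 was highest at 76.8 ± 20.3 CPM per kilobase, then Ccn1 at 59.9 ± 22.4, with overlapping ranges, and Wwtr1 at 30.6 ± 1.61, whose range lay apart from Ccn1. In vehicle libraries Ccn1 was highest at 91.0 ± 35.9, then Ccn2 at 64.8 ± 17.5, with overlapping ranges, then Wwtr1 at 27.8 ± 3.12 and Ajuba at 27.3 ± 4.24, which also overlapped. In healthy libraries Wwtr1 (21.4 ± 1.34), Ccn1 (20.4 ± 9.35) and Ccn2 (17.4 ± 2.54) led, each overlapping the next. Ankrd1 was at 10.6 ± 2.45 in zalfermin, 13.9 ± 4.94 in vehicle and 1.14 ± 0.392 CPM per kilobase in healthy libraries, and Tead2, at 0.486 ± 0.0741, was the lowest of the 10 in healthy libraries, overlapping Tead4 (0.546 ± 0.0768).

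Other genes of the pathway were followed in lists. Of 16 genes for the Hippo kinase core and its activators, 8 rose and 2 fell with obstruction (median log2 fold change 0.31). For this and the following lists, 36.2% of all tested genes rose and 28.6% fell, with a median of 0.09. The kinases Map4k4 and Taok3 rose by 1.57 and 1.07 on the log2 scale, and Nf2, which encodes the upstream activator merlin, fell by 0.35 (edgeR adjusted p = 0.000293), as did Wwc2 by 0.29 (0.00225). Of 11 cell-surface and polarity genes 7 rose and 2 fell, with a median of 0.51. The giant cadherin genes Fat1 and Dchs1 rose 2.83- and 2.75-fold, and on the log2 scale the polarity genes Patj and Mpp5 fell by 0.30 and 0.50. The VGLL cofactors bind TEAD factors in place of YAP and TAZ. Of 4, Vgll4 and Vgll3 were tested and both rose, by 1.14 and 2.64 on the log2 scale. Vgll1 held 15, 11 and 1 counts over all zalfermin, vehicle and healthy libraries, and Vgll2 held 0.

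Of 8 paralogues of Ccn1, Ccn2, Ankrd1 and Ajuba 6 were tested and rose. Ccn4 rose by 2.94 and Limd1, a relative of Ajuba, by 0.52 on the log2 scale. The next list held 19 genes of a YAP and TAZ target signature known from human cancer cells, without the 10 genes described here. Of the 19 genes 18 were tested, 12 rose and 1 fell, with a median of 0.88. The receptor kinase gene Axl and the membrane-repair gene Myof rose by 2.62 and 2.52, and Nt5e, which encodes an ectonucleotidase, fell by 0.59 (edgeR adjusted p = 0.000715). Of 12 genes for mechanical input, such as stretch channels and non-muscle myosins, 10 rose and 1 fell, with a median of 0.80. Rhob and Myh9 rose by 2.25 and 1.69, and the cation channel gene Trpv4 fell by 0.59 (edgeR adjusted p = 0.000173). All 13 genes of SRF and its cytoskeletal targets rose, with a median of 1.84, Flna (filamin A) by 2.53 and Tpm1 (tropomyosin) by 1.87. Lats2, Ptpn14 and Amotl2 count in 2 lists each.

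Relative to vehicle, 1 gene fell under zalfermin in each of 2 of these lists by edgeR, and 0 rose in any by edgeR, DESeq2 or voom. In the SRF list DESeq2 and voom each called 3 lower, and in the target signature voom called 3 lower. Of all 16026 tested genes, DESeq2 called 342 lower and voom 646. Voom also called Dchs1, Vgll3 and Ccn4 lower, 1 in each of 3 further lists. At unadjusted p under 0.05 edgeR placed 9 lower and 5 higher of the 75 tested pathway genes, where 7.53% of all tested genes were lower and 7.94% higher. Ccdc80, a matrix protein gene of the target signature, had 45.3 ± 11.3 CPM in zalfermin and 77.3 ± 13.4 CPM in vehicle libraries, against 5.62 ± 0.647 CPM in healthy libraries. It fell by 0.77 on the log2 scale (SE 0.138, edgeR adjusted p = 0.00535), and 8 of 8 zalfermin libraries lay below the vehicle median. Srf, the transcription factor that reads actin assembly through its MRTF partners, had 24.7 ± 2.47 CPM in zalfermin and 33.1 ± 4.78 CPM in vehicle libraries, against 25.8 ± 1.89 CPM in healthy libraries. It fell by 0.42 (SE 0.0876, edgeR adjusted p = 0.0154), with 7 of 8 zalfermin libraries below every vehicle library, and its log2 fold change for zalfermin against healthy was -0.06 (interval -0.28 to 0.16). The list medians for zalfermin against vehicle ran from -0.26 (SRF and its targets) to 0.07 (the kinase core), beside 0.01 over all tested genes. Both genes kept their call in all 23 alternative settings.

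**Figure D5:**
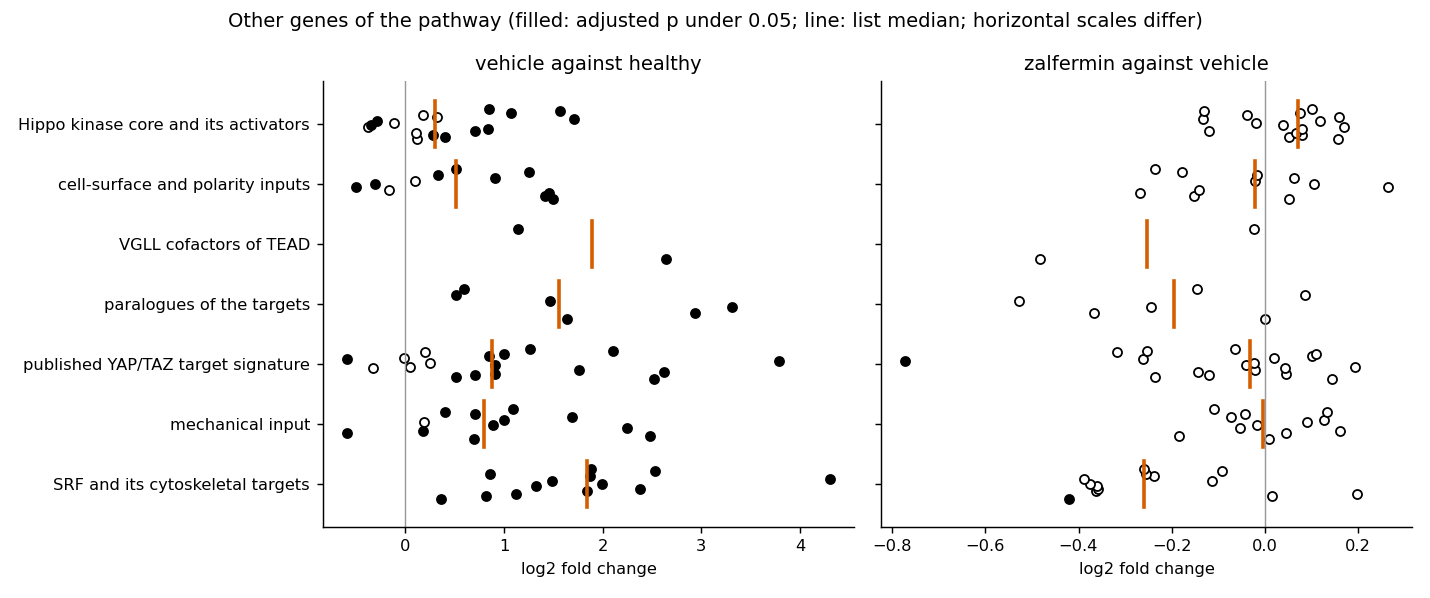
Log2 fold changes of the other pathway genes by list, 1 panel per comparison, with 1 point per tested gene, filled where edgeR's adjusted p was under 0.05, and a line at the list median. In the panel for zalfermin against vehicle the filled points are Ccdc80 (-0.77) and Srf (-0.42).

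Further cell markers gave values beside these lists. Of 5 macrophage markers all rose with obstruction, and under zalfermin 0 passed edgeR's test (3 were lower at unadjusted p under 0.05, and DESeq2 and voom called 0), with summed levels of 503 to 765, 639 to 812 and 121 to 143 CPM in zalfermin, vehicle and healthy libraries. Smooth muscle markers (4, of which Cnn1 and Actg2 also stand in the SRF list) summed to 62.3 to 96.5, 65.7 to 112 and 46.7 to 68.4 CPM. Podocyte markers, 5 in number, summed to 387 to 452, 339 to 423 and 384 to 462 CPM, endothelial markers to 253 to 364, 248.9 to 388 and 224 to 374 CPM, and urothelial markers to 20.01 to 64.3, 29.3 to 63.7 and 9.12 to 20.97 CPM. Under zalfermin edgeR called 1 of 5 injured-tubule markers (Krt20) and 1 of 6 proximal tubule markers (Slc5a12) higher than vehicle. So was 1 of 5 podocyte markers (Wt1), and 0 markers of these lists were called lower. Of all tested genes, 0.867% rose. Krt20 kept its call in all 23 alternative settings, Slc5a12 lost it in 2 and Wt1 in 6. The part of all these cell markers in the changes of the pathway genes was not tested.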

How the data were processed

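RNA of 19 kidney libraries was extracted with NucleoSpin kits and made into NEBNext Ultra II Directional libraries, per the labels' protocols. Per the submitters' processing notes, STAR 2.7.0f was used with GRCm38. The authors deposited raw, unnormalized read counts for every gene. The sources used here do not name the counting program, its handling of strand or the annotation. All 55536 gene IDs were found in GENCODE M21 (GRCm38), which gave coordinates and exon lengths. Where genes shared a symbol, the gene with most reads kept it, and the 118 others were renamed with their gene ID. The deposited description column gives Ccn2 the text of another CCN gene, and the ID and symbol were used.

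The filter was filterByExpr of edgeR, at a minimum count of 10 and a minimum total of 15. This left 16026 genes, and the 39510 others held 0.115% of the counts. TMM factors ran from 0.751 to 0.843 in healthy libraries and from 1.02 to 1.11 in the libraries of both obstructed groups. A single edgeR 4.0.16 quasi-likelihood fit (R 4.3.3) took the 19 libraries, p-values were adjusted by Benjamini-Hochberg over all tested genes, and 0.05 was the threshold. Standard errors are the log2 fold change divided by the square root of F, with 95% intervals. Ratios and list genes with too few reads were compared by exact permutation tests. No pair of replicates agreed within sampling noise (smallest chi-square per degree of freedom 5.89). Scripts were tested on simulated data.

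The members, the lists and the tests were chosen with earlier results of these data known. Named were the 10 genes and cell markers. For vehicle against healthy and zalfermin against vehicle, each list gave its 2 called genes of lowest p. It also gave the called gene of lowest p among those opposite to the list's majority. The same rule was set for zalfermin against healthy but was not followed there. Wwc2, Mpp5, Krt20, Slc5a12, Wt1, the muscle markers and the fibroblast markers other than Col1a1 were named after their values were seen. So were the vehicle and zalfermin libraries singled out. Some markers of the rule are given only in sums. The alternatives were upper-quartile or RLE scaling, DESeq2 1.42.0, voom with quality weights (limma 3.58.1), no filter or one at 1 CPM in 10 libraries, a fit without the group not compared, robust estimation, and each library left out.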

Additional observations from a re-analysis of the deposited data

Results flagged for a closer look

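Among the 30 combinations of a gene and a group, 3 held a library far from the rest of its group, measured as its gap to the nearest library over the whole range of the group. Chance flags about 1 in 20 groups. Wwtr1 in vehicle library 6 was at 100.4 CPM, where the nearest vehicle library was at 133 CPM. Tead3 in the same library was at 45.4 CPM, where the nearest was at 34.1 CPM. Tead3 in healthy library 2 was at 20.5 CPM, where the nearest healthy library was at 24.3 CPM.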

How the results depend on the processing

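Of 620 log2 fold changes of the 10 genes under alternative settings, 602 kept their direction and their side of the threshold, 12 lost their call, 6 gained one and 0 changed sign, and the changed calls (Tead1, Tead2, Tead3 and Ajuba) are given above with their values. For zalfermin against vehicle, 139 genes were higher and 151 lower by edgeR, against 260 and 342 by DESeq2 and 502 and 646 by voom. Leaving out 1 library gave 71 to 242 higher and 73 to 275 lower genes, with the highest counts without vehicle library 6. Of the 10 genes 2 were called lower by DESeq2 and by upper-quartile scaling, and 0 to 2 with 1 library left out. The cause was not tested.

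The log2 ratio of Wwtr1 to Yap1 for zalfermin minus vehicle ran from -0.044 to 0.075 with 1 library left out, the negative value being without vehicle library 6. For zalfermin minus healthy it ran from 0.074 to 0.16 and gave an exact permutation p, not adjusted over the 3 tests, of 0.0303 without zalfermin library 3 (0.13) and of 0.0242 without healthy library 3 (0.16). As shares of raw counts, without division by exon length, Tead1 made up 78.1%, 73.7% and 81.4% of TEAD counts in zalfermin, vehicle and healthy libraries, Tead2 5.80%, 8.09% and 1.58%, Tead3 14.9%, 16.9% and 15.7%, and Tead4 1.12%, 1.37% and 1.33%. Counts of called genes in the pathway and marker lists moved by over 1.5 times in 53 of 1984 recomputed values. For vehicle against healthy, the median over the tested genes, 0.09 on the log2 scale, was 0.01 with RLE scaling and 0.14 with upper-quartile scaling. No paired analysis was possible because the labels number no replicates, and the numbers used here come from accession order. Depth limits list genes with few counts, such as Tead4.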

Other observations

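The count ratio of Ccn1 to Ccn2 was 0.325 to 0.750 in zalfermin libraries, 0.627 to 1.80 in vehicle libraries and 0.455 to 1.53 in healthy libraries. It was seen after the values of both genes were known and is given as a description.

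For 4 of the genes, the tested genes whose log2 CPM followed them most closely over the 19 libraries, after the mean of each group was subtracted, are named with Pearson's r. Libraries share their depth and composition, so these are descriptions. Yap1 was followed by Pgm2 (r = 0.879, Spearman's rho = 0.809), Iars (0.852, rho = 0.867) and Ppp4r1 (0.846, rho = 0.788). Ccn1 was followed by Ube2f (r = 0.807, rho = 0.728), Ahsa2 (0.795, rho = 0.765) and Cd55 (0.792, rho = 0.825). Ccn2 was followed by Dubr (r = 0.855, rho = 0.809), Gm15382 (0.842, rho = 0.737) and Myadm (0.841, rho = 0.714), and these were 0.771, 0.785 and 0.747 without vehicle library 6. Ankrd1 was followed by Tm4sf1 (r = 0.814, rho = 0.798), Ncbp2 (0.812, rho = 0.574) and Smarce1 (0.801, rho = 0.718).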
